A study of Mus musculus with 12 samples.

Results

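The cyclin-dependent kinase (CDK) inhibitor family was followed by gene symbol through the cortical transcriptome of alcohol-drinking mice. Its 8 members, Cdkn1a, Cdkn1b, Cdkn1c, Cdkn2a, Cdkn2b, Cdkn2c, Cdkn2d and Cdkn3, were 8 of the 33024 gene symbols counted in every animal. Bulk RNA sequencing had been carried out on cortex of 12 C57BL/6 mice, 7 labelled Control and 5 labelled EtOH, each library being 1 animal. All mice were 30 days old at the start. The EtOH mice had bottles of water and of ethanol, the latter at 20% (v/v), offered side by side during 12 h of darkness (two-bottle choice drinking in the dark) over 35 days. Control mice, labelled as vehicle-treated, drank water. All 12 animals then went through 14 days without alcohol, followed by behavioural tests of memory, forced swimming and motor coordination, and the tissue was taken after these tests. The libraries therefore describe animals past acute intoxication that had all been tested. The amount drunk was chosen by each mouse, and its value per animal was not analysed here. The comparison asked whether the brakes of the cell cycle, some of which are used as markers of cellular senescence, differed in the cortex after such drinking.

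Cyclin-dependent kinases push a cell through its cycle when they are joined by a cyclin, and they do so by phosphorylating the pocket proteins (Rb1 and its relatives) that hold back the E2F transcription factors. The Cip/Kip inhibitors, encoded by Cdkn1a (p21), Cdkn1b (p27) and Cdkn1c (p57), bind whole cyclin-kinase complexes. The Ink4 inhibitors, encoded by Cdkn2a (p16), Cdkn2b (p15), Cdkn2c (p18) and Cdkn2d (p19), instead bind Cdk4 and Cdk6 and keep the D cyclins off. Cdkn3 belongs to neither branch, being a phosphatase that takes an activating phosphate off CDKs. In the brain, these inhibitors are known for the exit of progenitors from the cycle and for keeping mature neurons out of it. In tissues under stress or ageing, Cdkn1a and Cdkn2a are the most widely used transcripts of senescence.

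The regulatory sequence just before the first exon differs between the inhibitors, and the stretches for Cdkn1a and Cdkn1b are printed because the first was the member called between the groups and the second was an abundant member of the same branch that was not. Cdkn1a lies on chromosome 17 (GRCm39 chr17:29309936-29319701, plus strand) and has an upstream and a downstream start in RefSeq. Cdkn1b lies on chromosome 6 (chr6:134897364-134902476, plus strand). The bases come from the RefSeq promoter windows of GRCm38.p6 and were placed on GRCm39 by exact match, at chr17:29309833-29309932 and chr17:29312623-29312736 for the upstream and downstream starts of Cdkn1a and at chr6:134897194-134897363 for Cdkn1b, all on the plus strand and just upstream of an annotated transcript start. They are written 5′ to 3′, and capitals mark matches to a p53-type pair of half-sites (CATGNNNNNNCATG), a GC box (GGGCGG), the TATA box (TATAA) or the CCAAT box, searched on both strands.
Cdkn1a upstream start: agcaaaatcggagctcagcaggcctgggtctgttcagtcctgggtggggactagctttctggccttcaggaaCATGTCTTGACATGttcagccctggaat
Cdkn1a downstream start: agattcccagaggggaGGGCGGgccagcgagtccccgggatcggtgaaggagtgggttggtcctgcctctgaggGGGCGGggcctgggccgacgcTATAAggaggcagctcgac
Cdkn1b start: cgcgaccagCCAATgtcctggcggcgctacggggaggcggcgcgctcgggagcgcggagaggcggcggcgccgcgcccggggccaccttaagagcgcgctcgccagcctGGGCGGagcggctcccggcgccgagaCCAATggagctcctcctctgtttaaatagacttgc

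Windows of 250 bases before a start were at hand for 7 of the 8 members (10 windows; Cdkn1c had no entry). The p53-type pair was found in 1 of the 10, at 48 bases before the upstream Cdkn1a start, and in 0.49% of all 32851 mouse windows. A GC box was in 6 of the 10 windows against 32.7% of all, a CCAAT box in 3 against 33.8% and TATAA in 2, both of Cdkn1a, against 22.8%. A glucocorticoid-type palindrome (GNACANNNTGTNC) was in 0 of the 10 and in 0.387% of all windows. A match to these letters is a description of sequence and does not show that a factor binds there, and elements farther away lie outside the windows.

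Total counts were between 31768076 and 40690223 in the control mice and between 32048723 and 42183029 in the EtOH mice, and 16059 genes passed the expression filter. Levels are given as CPM (counts divided by the TMM-normalized library size, so that libraries of unequal depth can be compared), and differences as log2 fold changes of EtOH over Control from the quasi-likelihood test of edgeR, with p-values adjusted by Benjamini-Hochberg over all genes tested. A gene was called at an adjusted p under 0.05 with a log2 fold change above 0.5 in size. Cortical excitatory neuron markers were abundant in every mouse, with Slc17a7, the vesicular glutamate transporter of these cells, between 1682 and 2213 CPM. Markers of striatum were called lower in EtOH in 15 of 15 genes, and their mean log2 CPM lay between 2.43 and 3.06 in EtOH and between 5.20 and 6.46 in Control. Of 14 hippocampal markers 8 were called higher, and 13 of the estimates were positive. The part of these regional differences in the values of the inhibitors was not tested.

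Of the 8 members, 7 passed the filter, 1 was called lower (Cdkn1a) and 0 were called higher in EtOH. Among all genes tested, 8.29% were called in either direction, 4.09% were called lower and 4.2% were called higher. The log2 fold change was negative for 6 of the 7 and positive for Cdkn1c alone, with a median of -0.15 over the members and of 7.2e-05 over all genes. An unadjusted p under 0.05 was reached by 4 of the 7 members, against 36.5% of all genes. No member had ranges of CPM that were fully apart between the groups, against 9.81% of all genes.

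**Figure D1:**
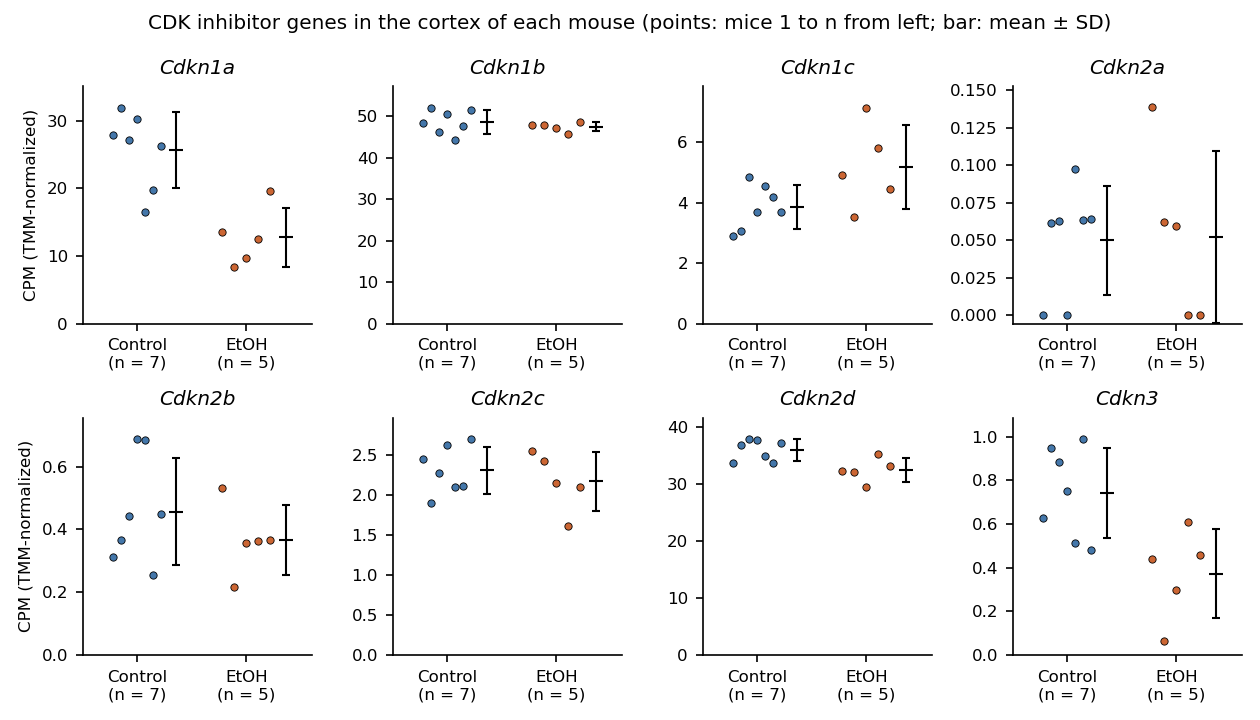
CPM (y axis from 0, extended below it for Cdkn2a, whose SD bar crosses 0) of the 8 CDK inhibitor genes in each of 7 Control (blue) and 5 EtOH (orange) mice, mice 1 to n from left to right in each group, with the mean and SD as a bar beside the points. Cdkn1a points of 4 EtOH mice lie under all Control points, Cdkn1b points of the groups share a narrow band, and Cdkn2a sits at or near 0 throughout.

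Among the Cip/Kip genes, Cdkn1a, the p53-responsive inhibitor, moved most. Its level was 27.9, 32.0, 27.2, 30.3, 16.5, 19.8 and 26.4 CPM in Control 1 to 7 and 13.6, 8.43, 9.75, 12.5 and 19.7 CPM in EtOH 1 to 5. The groups touched through few animals, since EtOH 5 lay above Control 5 and near Control 6, while the other 4 EtOH mice were below every control. In log2 terms the change was -1.004 ± 0.19 (SE), with a 95% interval of -1.40 to -0.61 and an edgeR adjusted p of 0.000974. These values rest on 271 to 1044 counts per mouse. Over the exons of Cdkn1a, 12.5% of bases overlap 2 transcripts on the other strand, Dino and Gm64878, neither of which is a row of the count table, and reads from them could not be separated if the counting ignored strand.

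Cdkn1b, the p27 inhibitor that is abundant in resting neurons and glia, was level across the cohort. Its lowest, median and highest values were 44.3, 48.3 and 52.1 CPM in Control and 45.7, 47.9 and 48.7 CPM in EtOH, the EtOH range lying wholly inside that of the controls. Between the groups it differed by -0.04 ± 0.05 on the log2 scale (SE; edgeR adjusted p = 0.662), and its 95% interval of -0.15 to 0.08 leaves out any difference of the size required for a call.

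Because both transcripts come from 1 library, their count ratio within a mouse does not depend on scaling. Counts of Cdkn1b per count of Cdkn1a ran from 1.63 to 2.68 in Control (mean 1.97 ± 0.416, SD, n = 7) and from 2.47 to 5.68 in EtOH (4.04 ± 1.25, SD, n = 5). The ratio was above every control in 4 of the 5 EtOH mice. Counts of Cdkn2d, the most abundant Ink4 gene, per count of Cdkn1a were 1.46 ± 0.342 (SD, n = 7) in Control and 2.75 ± 0.785 (SD, n = 5) in EtOH, again with 4 of 5 EtOH mice above every control. Since Cdkn1b and Cdkn2d differed little between the groups, these ratios largely restate the Cdkn1a values without scaling and are not separate support.

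Cdkn1c, the imprinted p57 gene (chr7:143012069-143014806, minus strand), was the member with a positive estimate. Its level was 2.91, 3.06, 4.86, 3.69, 4.57, 4.18 and 3.69 CPM in Control 1 to 7 and 4.94, 3.52, 7.16, 5.83 and 4.47 CPM in EtOH 1 to 5. EtOH 1, 3 and 4 stood above every control, whereas EtOH 2 and 5 were inside the control range. The log2 fold change of 0.43 ± 0.17 (SE; 95% interval 0.07 to 0.78) did not pass, at an edgeR adjusted p of 0.0734. DESeq2 gave 0.43 with an adjusted p of 0.0497, under the size required for a call, and limma voom 0.40 with 0.094. Without EtOH 2 it was 0.53 with an adjusted p of 0.0232, and without EtOH 3, the mouse with the highest choroid plexus markers, it was 0.28 with an adjusted p of 0.237. Both the size and the call hence hang on single animals. Of its exon bases, 29% lie opposite the transcript Gm44732.

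The EtOH mice with the highest Cdkn1c were also those with the most transcripts of choroid plexus, the epithelium that secretes cerebrospinal fluid. The mean log2 CPM of the choroid plexus markers was 4.40 in EtOH 3, 3.11 in EtOH 4 and 2.20 in EtOH 1, but 0.543 in EtOH 2 and -0.05 in EtOH 5, beside -0.303 to 1.32 in the controls. Ttr, the transthyretin gene that defines this epithelium, was at 911, 241 and 97.8 CPM in EtOH 3, 4 and 1 and at 8.99 and 2.16 CPM in EtOH 2 and 5, with 3.13 to 13.1 CPM in the controls. Kl, the klotho gene of the same list, was at 14.6, 8.84, 47.9, 19.5 and 8.09 CPM in EtOH 1 to 5 and at 1.76 to 3.71 CPM in the controls, so that EtOH 2 and 5 also lay above every control, though below EtOH 1, 3 and 4. Of the 8 markers listed, 6 were tested and 4 were called higher. Of 9 pericyte and meninges markers 1 was called higher, the fibroblast gene Dcn, and the list had a median log2 fold change of 0.08 with overlapping groups (mean log2 CPM 2.92 to 3.87 in EtOH and 3.04 to 3.49 in Control). The part of choroid plexus in the Cdkn1c values was not tested. In whole tissue, more cells of a type and more RNA per cell cannot be told apart.

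**Figure D2:**
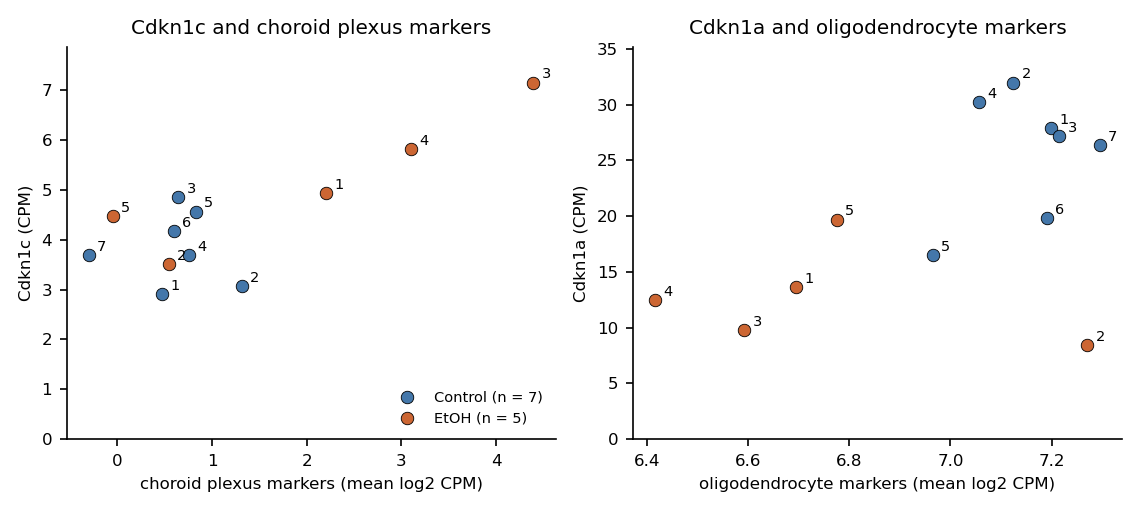
Left, CPM of Cdkn1c (y axis) against the mean log2 CPM of choroid plexus markers (x axis). Right, CPM of Cdkn1a against the mean log2 CPM of oligodendrocyte markers. Points are single mice, numbered within 7 Control (blue) and 5 EtOH (orange). EtOH 1, 3 and 4 are highest on both axes of the left panel, and in the right panel EtOH 2 has the lowest Cdkn1a (8.43 CPM) at an oligodendrocyte value of 7.27, inside the Control range.

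Cdkn1a is expressed in glia as well as in neurons, and several cell type lists differed between the groups. The largest shift was that of striatum, given above. Over all genes 8.29% were called, and 23.7% had an adjusted p under 0.05. Oligodendrocyte precursor markers overlapped (mean log2 CPM 5.32 to 5.41 in EtOH and 5.34 to 5.46 in Control), with 0 of 7 called. Endothelial markers also overlapped (4.50 to 4.67 and 4.59 to 4.77), with 1 of 9 called lower and 8 of 9 estimates negative. Oligodendrocyte markers, genes of the myelinating cells, gave a mean log2 CPM of 6.96 to 7.29 in Control and of 6.42 to 6.78 in EtOH 1, 3, 4 and 5, and 2 of 12 were called lower, 9 being lower by adjusted p alone and all 12 estimates being negative. EtOH 2, which had the lowest Cdkn1a of all 12 mice, had an oligodendrocyte value of 7.27. Control 5, with the lowest Cdkn1a and the highest total count among the controls, had the lowest oligodendrocyte value among them. Its astrocyte, microglial, endothelial and interneuron values were also the lowest of the controls, while its oligodendrocyte precursor value was the highest. Microglial markers lay between 4.56 and 4.67 in EtOH and between 4.75 and 5.05 in Control, with 1 of 10 called lower, 7 lower by adjusted p alone and all 10 estimates negative. Astrocyte markers lay between 7.50 and 7.62 in EtOH and between 7.33 and 7.50 in Control, with 1 of 9 called higher and, by adjusted p alone, 3 higher and 1 lower. Interneuron markers lay between 6.28 and 6.44 in EtOH and between 6.58 and 6.86 in Control, every EtOH mouse below every control. Of these markers 3 of 9 were called lower (Gad2, Slc32a1 and Npy), and 8 of 9 estimates were negative. By adjusted p alone 5 of 9 were lower, the called genes with Gad1 and Cck. Pvalb, Sst, Vip and Lhx6 did not pass (edgeR adjusted p of 0.106, 0.0943, 0.12 and 0.776). Striatal markers were likewise lower in every EtOH mouse, and the part of striatum in these interneuron values was not tested. Cortical excitatory neuron markers lay between 7.34 and 7.52 in EtOH, inside the Control range of 7.21 to 7.56, with 1 of 10 called higher, but the members of this list went both ways, 4 being higher and 2 lower by adjusted p alone. Apart from these values, the part of these cell types in the Cdkn1a difference was not tested.

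The Ink4 genes gave no call. Cdkn2d, encoding the p19 inhibitor of Cdk4 and Cdk6 (chr9:21199700-21202727, minus strand), had 33.7, 36.9 and 37.9 CPM as its lowest, median and highest control values. EtOH 1 to 5 had 32.4, 32.1, 29.6, 35.4 and 33.3 CPM, and 4 of the 5 lay below every control, EtOH 4 being the exception. The log2 fold change was nonetheless small, at -0.15 ± 0.06 (SE; 95% interval -0.27 to -0.02; edgeR adjusted p = 0.0752). Cdkn1a, Cdkn2d and Cdkn3 were the members with at least 4 EtOH mice below every control, a pattern held by 10.1% of all genes.

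Cdkn2c, which encodes the p18 inhibitor (chr4:109517957-109524386, minus strand), had overlapping groups. It ran from 1.90 to 2.69 CPM in Control (median 2.27) and from 1.61 to 2.55 CPM in EtOH (median 2.15). The log2 fold change was -0.09 ± 0.15 (SE; 95% interval -0.41 to 0.23; edgeR adjusted p = 0.719). As for Cdkn1b and Cdkn2d, the interval does not reach a change of 0.5 in either direction.

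Cdkn2a and Cdkn2b are neighbours on chromosome 4, the Ink4 locus (chr4:89192708-89212890 and chr4:89223204-89229276, minus strand), and both were scarce. Cdkn2b, which encodes p15, had 10, 12, 14, 22, 28, 8 and 14 counts in Control 1 to 7 and 23, 7, 12, 12 and 12 counts in EtOH 1 to 5. Its log2 fold change of -0.30 ± 0.32 (SE; edgeR adjusted p = 0.516) had a 95% interval of -0.97 to 0.36, which leaves out a rise of the size required for a call but not a fall. The estimate was -0.49 without EtOH 1 and -0.19 to -0.18 without Control 4, Control 5 or EtOH 2. Cdkn2a had 0, 2, 2, 0, 4, 2 and 2 counts in Control 1 to 7 and 6, 2, 2, 0 and 0 counts in EtOH 1 to 5, and it did not pass the filter. The mean was 1.71 counts in Control and 2 in EtOH, under the floor of 3 counts per library that a count of 0 allows, and no fold is given. The row joins p16 with the overlapping p19Arf transcript, a separate protein read in another frame from shared exons.

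Cdkn3, the CDK-directed phosphatase (chr14:46997904-47015505, plus strand), had 20, 31, 28, 24, 21, 31 and 15 counts in Control 1 to 7 and 19, 2, 10, 20 and 15 counts in EtOH 1 to 5. In CPM, 4 EtOH mice were below every control. The log2 fold change of -0.97 ± 0.36 (SE) was close in size to that of Cdkn1a, but its 95% interval ran from -1.73 to -0.22 and the edgeR adjusted p was 0.0583. DESeq2, by which 8.66% of all genes were called, gave -0.98 with an adjusted p of 0.0352, and limma voom -1.17 with 0.0487, so the call depended on the tool. Cdkn3 is a transcript of dividing cells, and markers of these cells, a list that does not hold Cdkn3, lay between -0.121 and 0.447 in mean log2 CPM in EtOH and between 0.578 and 1.15 in Control, with 3 of 11 called lower. Top2a, the topoisomerase of mitotic chromosomes, was at 0.622 to 1.46 CPM in EtOH and at 1.69 to 2.63 CPM in Control. The part of dividing cells in the Cdkn3 values was not tested. Cdkn3 shares 6.33% of its exon bases with Cnih1 on the other strand, which had 53.9 ± 6.29 CPM in Control (SD, n = 7) and 45.8 ± 1.92 in EtOH (SD, n = 5) with a log2 fold change of -0.23, and reads could not be assigned if strand was ignored.

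**Figure D3:**
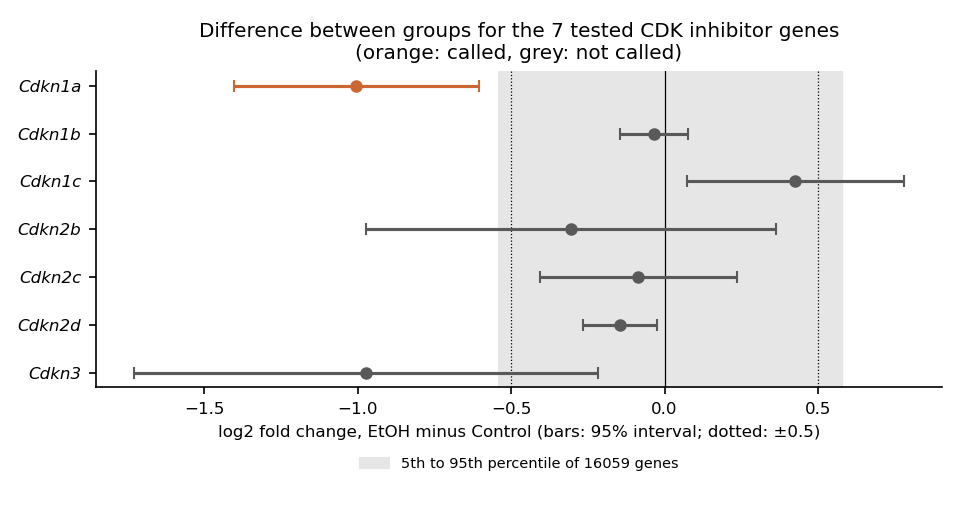
Log2 fold change of EtOH over Control (x axis) with its 95% interval for the 7 CDK inhibitor genes tested, over a grey band from the 5th to the 95th percentile of all 16059 genes (-0.54 to 0.58). Cdkn1a (orange) is the gene called, Cdkn3 has a similar estimate with a wider interval, and the interval of Cdkn1b is the narrowest.

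To compare members with each other, CPM was divided by the length of the annotated exons in kilobases. In Control the order was Cdkn2d at 21.7, Cdkn1b at 10.7, Cdkn1a at 4.25 and Cdkn1c at 1.79 CPM per kilobase, followed by Cdkn2c at 0.363, Cdkn2b at 0.168, Cdkn3 at 0.0943 and Cdkn2a at 0.0427. From Cdkn2d down to Cdkn2b, each gene was above the next in 7 of 7 control mice without overlap. The last 3 overlapped, Cdkn2b with Cdkn3 and Cdkn3 with Cdkn2a.

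In EtOH, by the same exon lengths, the order was the same but for one exchange. Cdkn1c stood at 2.40 ± 0.642 and Cdkn1a at 2.12 ± 0.725 CPM per kilobase (SD, n = 5), with overlapping ranges and Cdkn1c above Cdkn1a in 4 of 5 mice. With the longest annotated transcript as the length, Cdkn1a (3.12) stayed above Cdkn1c (2.59) in EtOH, so this exchange depends on which length is used. That length also put Cdkn3 (0.191) above Cdkn2b (0.168) in Control, but not in EtOH, where Cdkn2b (0.135) stayed above Cdkn3 (0.096). Cdkn2d and Cdkn1b remained on top at 19.6 and 10.4 CPM per kilobase. Of the summed length-scaled level of all 8 genes, Cdkn1a made up 10.8% ± 1.95 in Control (SD, n = 7) and 5.98% ± 1.84 in EtOH (SD, n = 5), whereas Cdkn2d made up 55.5% ± 1.32 and 55.8% ± 2.25.

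The genes that act on the inhibitors, or through them, were read from lists of pathway genes. Downstream, 17 cyclins and CDKs of the cell cycle gave 1 gene called higher and 0 lower, with a median log2 fold change of -0.07. The gene called was Ccna1, a cyclin A best known from the germ line, at 0.376 to 0.994 CPM in Control and 1.07 to 1.58 in EtOH (log2 fold change 0.85 ± 0.24, SE; edgeR adjusted p = 0.0152). The largest change of the list in size was that of Ccnb1, the mitotic cyclin B, at -1.41 ± 0.54 (SE; edgeR adjusted p = 0.0672), and DESeq2 called it lower (-1.46, adjusted p = 0.0388). By adjusted p alone, 2 genes of the list were lower and 2 were higher. The direct targets of the Ink4 proteins had values of 0.21 for Cdk6 (adjusted p = 0.287) and -0.11 for Cdk4 (adjusted p = 0.178). The 13 pocket proteins and E2F factors, which the kinases act upon, gave 0 calls in either direction and a median of 0.06. The smallest p among them belonged to E2f4, a repressive E2F of resting cells, at -0.26 ± 0.07 (SE; edgeR adjusted p = 0.0171), under the size required for a call, and E2f1, an activating E2F, was at -0.35 (adjusted p = 0.0261).

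Upstream of Cdkn1a, p53 and its target genes numbered 20, of which 0 were called higher and 2 lower, with a median of 0.05. The estimates were positive for 13 and negative for 7. The largest positive estimate, that of Btg2, was not called (0.84 ± 0.34, SE; edgeR adjusted p = 0.0842). Both genes called lower had every EtOH mouse under every control. Pmaip1, which encodes the pro-apoptotic protein Noxa, was at 1.16, 1.68, 1.37, 1.03 and 1.49 CPM in EtOH 1 to 5 and had a lowest, median and highest control value of 2.36, 3.06 and 3.85 CPM (log2 fold change -1.13 ± 0.18, SE; edgeR adjusted p = 0.000178). Phlda3, an inhibitor of Akt signalling, was at 13.0, 14.4, 10.9, 12.2 and 15.1 CPM in EtOH against 17.5, 19.6 and 25.6 CPM in Control (-0.62 ± 0.10, SE; edgeR adjusted p = 0.000305). The other 18 included Trp53 itself (-0.13, adjusted p = 0.189) and Mdm2, the ligase that degrades p53 and is also its target (0.12, adjusted p = 0.289). By adjusted p alone 2 genes of the list were lower and 1 was higher, Mdm4, an inhibitor of p53 (0.21, adjusted p = 0.0236), with 4 of 5 EtOH mice above every control. The p53-type pair that stood before Cdkn1a was in 0 of the 22 windows at hand for 16 of these 20 genes.

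Glucocorticoids are another known inducer of Cdkn1a, and 18 glucocorticoid-induced genes were listed. Of these, 2 were called lower, 1 was called higher and 15 were not called, with a median of -0.19. Plin4, a lipid droplet protein, was at 3.80, 2.68, 2.95, 2.73 and 3.83 CPM in EtOH 1 to 5, all below the lowest control at 4.50, and the controls reached 14.2 CPM (log2 fold change -1.44 ± 0.25, SE; edgeR adjusted p = 0.000596). Sgk1, a serum- and glucocorticoid-regulated kinase, was at 51.8 to 70.9 CPM in EtOH and 58.3 to 132 CPM in Control, with overlap (-0.57 ± 0.15, SE; edgeR adjusted p = 0.0128). Zbtb16, a zinc finger factor, went the opposite way, at 41.8 to 62.8 CPM in EtOH and 20.5 to 41.2 CPM in Control (0.75 ± 0.13, SE; edgeR adjusted p = 0.000672). By adjusted p alone, with no size required, 6 genes were lower (Plin4, Sgk1, Hif3a, Klf9, Mt1 and Arrdc2) and Zbtb16 was higher, and 12 of the 18 estimates were negative. Fkbp5, a widely used reporter of the receptor that was added once its value was known, had 32.2 ± 5.14 CPM in EtOH (SD, n = 5) and 32.9 ± 4.88 CPM in Control (SD, n = 7).

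The remaining lists held 0 calls each. The 11 repressors of the Ink4 locus, chiefly Polycomb proteins, had a median of 0.02, and Kdm2b, a histone demethylase that brings Polycomb to CpG islands, had the smallest p (0.26 ± 0.07, SE; edgeR adjusted p = 0.0103). The 8 genes of p27 turnover had a median of -0.02, and Rnf123, a ubiquitin ligase subunit for p27, had the smallest p (0.25 ± 0.06, SE; edgeR adjusted p = 0.00839). Skp2, the better known receptor of p27 for degradation, was at 0.15 (adjusted p = 0.316). Among the 4 FoxO factors, which activate transcription of Cdkn1b, Foxo1 was at -0.45 ± 0.10 (SE; edgeR adjusted p = 0.00315), with 4 of 5 EtOH mice below every control. All 3 of these genes passed on p but were under the size required for a call. Across all genes 23.7% had an adjusted p under 0.05 when no size was required.

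**Figure D4:**
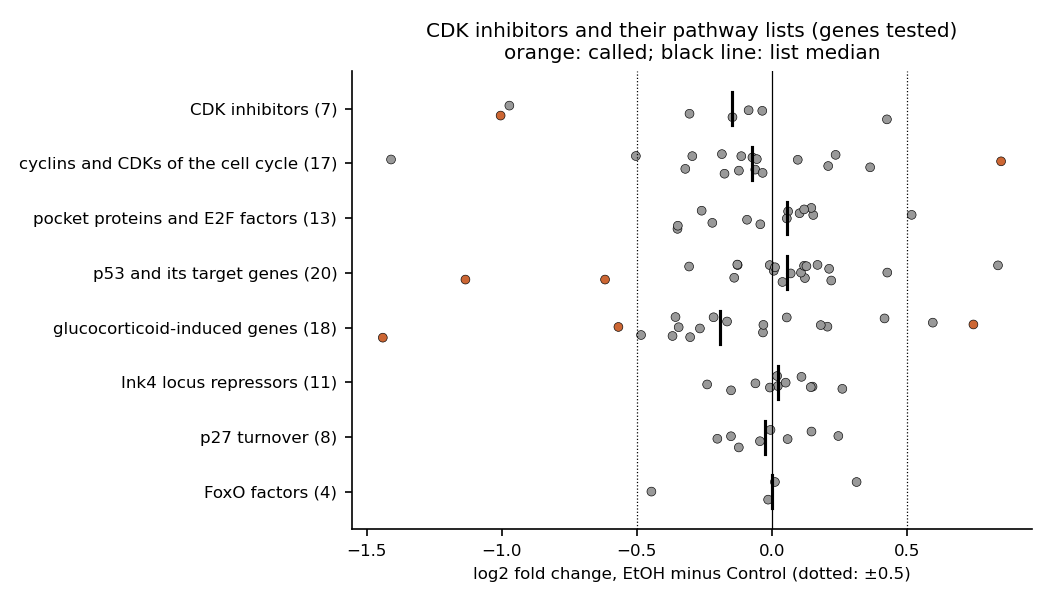
Log2 fold change of EtOH over Control (x axis) for each tested gene of the CDK inhibitors and of 7 lists of genes around them, with the number tested in parentheses, the list median as a black line and called genes in orange. Called genes are Cdkn1a, Ccna1, Pmaip1, Phlda3, Sgk1, Plin4 and Zbtb16, and the list medians lie between -0.19 and 0.06.

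Within the groups, Cdkn1a varied over a wide range, and the genes that varied most like it were found from log2 CPM after each group mean had been subtracted (Pearson's r over 12 mice, 14172 genes compared). They were Anapc2, a subunit of the anaphase-promoting complex, at 0.894, Ubtf, a factor for ribosomal RNA genes, at 0.892, Ciao2b at 0.888, Lratd1 at 0.881 and Drosha, the nuclease of microRNA precursors, at 0.878. None of these 5 was called between the groups, their log2 fold changes being -0.05, -0.15, -0.25, -0.39 and 0.07, although Lratd1 passed on p (edgeR adjusted p = 8.2e-05) at a size under that required. The values come from the same libraries, and the highest of many correlations is high by selection.

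For Cdkn1c the closest genes were Iqcd (0.932), Rgp1 (0.914) and Crb1 (0.904), and here the difference between groups was shared in part. Iqcd had 0.990 ± 0.152 CPM in Control (SD, n = 7) and 1.48 ± 0.300 in EtOH (SD, n = 5), differing by 0.58 on the log2 scale (edgeR adjusted p = 0.0334). Crb1, a polarity gene of epithelia and retina, had 1.08 ± 0.264 and 2.27 ± 0.720 CPM, and differed by 1.07 (log2; edgeR adjusted p = 0.00252). Both had their highest values in EtOH 3, 4 and 1, the mice with the highest choroid plexus values. Rgp1 was not called (0.13, adjusted p = 0.0907).

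The closest genes to Cdkn1b were Tek (0.899), an endothelial receptor, Atg12 (0.890), of autophagy, and 1700029J07Rik (0.889). Those closest to Cdkn2c were Zc3h7a (0.887), Ccdc13 (0.873) and Rb1cc1 (0.861), and those closest to Cdkn2d were Pgp (0.910), Vps28 (0.889) and Ppp1r12c (0.878). None of these 9 genes was called between the groups, though Atg12 (-0.20), Vps28 (-0.17) and Ppp1r12c (-0.22) had an edgeR adjusted p of 0.0178, 0.0257 and 0.00414. Cdkn2a, Cdkn2b and Cdkn3 had a mean under 1 CPM and were not compared in this way.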

How the data were processed

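Total RNA of frozen cortex was sequenced by BGI (DNBSEQ). The authors checked reads with FastQC 0.11.9, aligned them to GRCm39 with STAR and Gencode Release 28, and counted them with featureCounts; their comparison used DESeq2. They deposited 1 table of expected counts per gene symbol, not normalized. In it 61 symbols, none of them a CDK inhibitor, held values that were not whole, and all counts were rounded. Strand and multi-mapping settings are not given in the sources used here. Replicates are single mice numbered by the labels.

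Genes were kept with filterByExpr (16059 genes), normalized with TMM (factors 0.982 to 1.02) and compared with edgeR 4.0.16 (R 4.3.3) by its quasi-likelihood test with Benjamini-Hochberg adjustment. Log2 CPM used a prior count of 2. Alternatives were DESeq2 1.42.0, limma voom 3.58.1, factors by relative log expression or upper quartile, other filters, other fold minimums, the replicate number as a block, each mouse left out, and, chosen after seeing the data, both deeper libraries left out. The fits were tested on simulated data. At these totals, 3 counts correspond to between 0.0711 and 0.0944 CPM. Intervals and floors cover the spread of these libraries and counting error only.

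Gene positions and exon lengths are from Gencode vM39 on GRCm39. Promoter windows are from RefSeq on GRCm38.p6. The named genes are the members, every called gene of a pathway list or, with none called, the gene with the smallest p, the 3 genes most like each member of at least 1 CPM (5 for Cdkn1a), and chosen defining markers of cell type lists. Genes outside this rule (Ccnb1, E2f1, Cdk4, Cdk6, Trp53, Mdm2, Mdm4, Btg2, Skp2, Fkbp5, Hif3a, Klf9, Mt1, Arrdc2 and Cnih1) were added once their values were known. The members and lists were chosen with earlier results of these data known.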

Additional observations from a re-analysis of the deposited data

Results flagged for a closer look

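Of 44 group values examined (members, marker values and total counts), 4 had 1 mouse standing far from the others of its group, where chance gives about 2.2. The total count of Control 5 was 40690223 against 32356913 in the next control, and that of EtOH 1 was 42183029 against 33313165 in the next EtOH mouse. Neither gave a value of a CDK inhibitor that was flagged, although Control 5 had the lowest Cdkn1a (16.5 CPM) among the controls. Blood markers were highest in Control 6, at a mean log2 CPM of 3.79 against 1.14 in the next control. Astrocyte markers were highest in EtOH 3, at 7.62 against 7.53.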

How the results depend on the processing

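Cdkn1a was called lower in all 20 alternative fits, at log2 fold changes of -1.21 to -0.90 and adjusted p of 0.000115 to 0.00622; the highest p is that of the replicate block (-1.09), whose numbers did not pair the mice (correlation of same-numbered mice -0.108 to 0.018) and which changed no other member's call. Without the 2 deeper libraries, chosen after seeing the data, it was -1.11 (adjusted p = 0.000926). Cdkn3 was called under DESeq2 (-0.98) and limma voom (-1.17), and with each mouse left out it ran from -1.20 to -0.72, passing without Control 5, Control 7 or EtOH 4 (adjusted p 0.0393, 0.0468 and 0.0386). Cdkn1c ran from 0.28 to 0.53, passing without EtOH 2 and lowest without EtOH 3. Cdkn2c ran from -0.15 to 0.00202, the latter, with its sign turned, without EtOH 4. Members called were 1 in the reported fit, 2 under DESeq2 and limma voom, and 1 to 2 with each mouse left out. Genes called over the whole table were 1331, of which 674 were higher and 657 lower, 3810 (1947 and 1863) with no fold minimum and 524 (242 and 282) with a minimum of 1. Cdkn2b and Cdkn3 left the fit that required 10 counts in every mouse. Scaling by totals without TMM kept all 16 group means within 1 SD, whereas length by the longest transcript moved 8 of the 16 levels per kilobase. Cdkn2a, Cdkn2b and Cdkn3 rest on few counts per mouse, and the difference in regional markers cannot be told apart from the drinking.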
